A study of Oryza sativa Indica Group with 17 samples.

Results

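Of the 57194 probe sets on the Rice GeneChip, 1822 had no flagged probe on any of the 17 arrays, or 3.19%. These never-flagged probe sets were chosen by their measured values: a set belongs to them when its deposited value is 0 in all 17 columns, and the other 55372 sets have a value above 0 on at least 1 array. Each deposited value is a share between 0 and 1, the part of a set's perfect match probes whose signal the authors marked as low relative to wild type. The level of the never-flagged sets is therefore fixed by the choice, and no test was made on it. What was examined is what these sets have in common beyond that choice: their name class, the genes they are paired with, the chromosome and length of those genes, and the shares at other probe sets of the same genes and at neighbouring genes.

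Genomic DNA came from leaves of IR64 rice, an indica variety, at 45 days, with 1 array for each of 16 mutant lines and 1 for the wild type, called WT check. The lines were advanced to M4 or M5 after treatment of IR64 with diepoxybutane (DEB; D256, D1137 and D2943), fast neutrons (F1856 and F2045) or gamma rays (G282, G650, G6485, G6489, G6603, G6686, G6728, G7534, G9799 and G6989), and the sample labels write the line letters in lower case. G6989 is not named in the study's text, so its treatment and generation are taken from its label alone. D1137 is named there, but neither D1137 nor G6989 is among the mutants whose predicted deletions the study counts. For the dwarf line d1, which carries a deletion of RGA1, the labels give DEB and the study's methods give gamma rays. D1137, D2943, G650, F1856, G9799 and F2045 are lesion mimic mutants of the spl1 type. No line has a replicate among these arrays. The study reports replicate hybridizations for G650 and F1856 while the method was being developed. Its text does not say how they relate to the deposited values of these lines. The labels name WT check as the comparison DNA for every array, also for WT check itself, so the wild type behind the WT check values is not clear. Shared comparison DNA means that the arrays are not independent of each other.

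A perfect match probe is a short oligonucleotide that pairs exactly with the sequence it was designed from, and a probe set is the group of such probes that stands for 1 transcript or gene model. When a stretch of the genome is lost in a mutant, its DNA no longer binds the probes from that stretch, and their signal drops relative to wild type. A set at 0 everywhere is one where no probe dropped past the limit in any line. The study states that the array rests mainly on japonica rice sequences, while the DNA here is indica. How well each set binds this DNA was not tested. A value of 0 therefore does not show that the sequence is present or intact in a line. Probes that also match other copies of a sequence, as in gene families, keep binding DNA from those copies when 1 copy is deleted. Names that begin with Os. were designed from expressed sequences of rice, and names that begin with OsAffx from predicted gene models. A name that ends in _at has probes designed to be unique. The ending _a_at marks probes shared by transcripts of 1 gene, _s_at probes shared by several transcripts, and _x_at sets with some probes that resemble other sequences.

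How readily a set stayed at 0 differed widely between arrays. The share of all probe sets at 0 was lowest on the G6989 array (18.7%), followed by the WT check array (44.5%) and G282 (45.7%), and highest on G650 (96.3%). The size of the never-flagged group rests on a few arrays. Without G6989 the same rule takes 4195 sets, without the WT check array 3380, without D1137 2496, without G9799 2185 and without G282 2072. Leaving out any other single array gives between 1827 and 1872 sets. The mean share over all sets was lowest in F1856 (0.00684) and G650 (0.00768) and highest in G6989 (0.176) and G282 (0.108), with 0.0745 on the WT check array. It did not order the arrays as the number of sets they kept out did, since G6603, with a mean of 0.0654, kept out 36 sets, and G9799, with a mean of 0.0378, kept out 363.

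**Figure D1:**
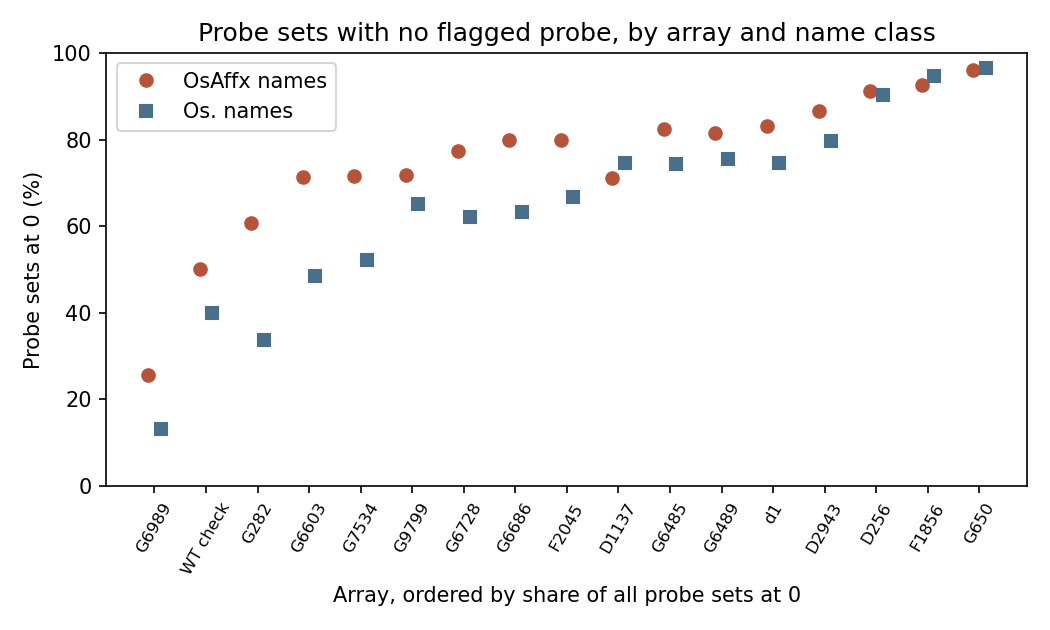
Share of probe sets at 0 (no flagged probe, percent) on each array, with OsAffx names as circles and Os. names as squares; arrays are ordered by the share over all probe sets. OsAffx sets were more often at 0 on 14 of the 17 arrays, with the widest gap in G282 (60.7% against 33.7%).

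Just outside the rule were 5621 probe sets with a value above 0 on exactly 1 array (9.83% of all sets). In 3848 of them the value was 0.0909, that is 1 probe of 11, and in 1243 it was 2 probes of 11. The array that kept them out was G6989 for 2373 sets and WT check for 1558 sets, then D1137 (674), G9799 (363) and G282 (250), while each other array accounted for 50 or fewer. On their single array, 25 of these sets reached a share of 0.5, the level at which a set is called low here. Of all 57194 probe sets, 3413 reached it in at least 1 mutant line, or 5.97%. The 2 counts are not alike, since a set just outside the rule has only 1 array on which to reach it. Of the 25, D1137 held 19, and G282 and G6989 held 3 each. No call rate of single arrays over all sets was set beside this split. One of the 3 in G282 is the set Os.28541.1.S1_at of LOC4342250 on chromosome 7, at 0.909, and one of the 3 in G6989 is Os.27635.1.S1_at of LOC4325947 on chromosome 1, at 0.727. At the other extreme, 17 sets had a value above 0 on every array.

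Predicted gene models made up most of the never-flagged sets. Names that begin with OsAffx account for 1304 of the 1822 sets, or 71.6% (95% exact interval 69.4 to 73.6%), against 43.7% (43.3 to 44.1%) of the other sets. Counted the other way, 5.11% of the 25500 OsAffx sets were never flagged (4.85 to 5.39%), and 1.63% of the 31694 Os. sets, with intervals that do not overlap. The intervals treat probe sets as independent, which sets with overlapping probes or the same gene are not, so they cover counting error only. The OsAffx share of the never-flagged sets was 65.7% when G6989 was left out of the rule and 74.0% when D1137 was, and stayed above that of the other sets each time.

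**Figure D2:**
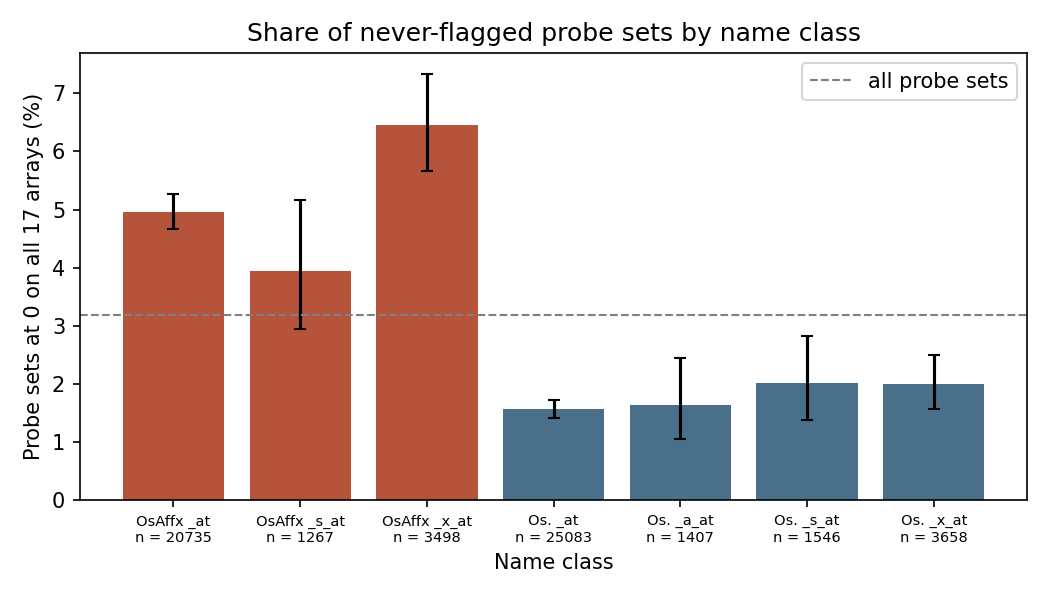
Percent of the probe sets of each name class at 0 on all 17 arrays, with OsAffx classes in red and Os. classes in blue; error bars are 95% exact Clopper-Pearson intervals and the dashed line is the 3.19% of all probe sets. The 3 OsAffx classes range from 3.95 to 6.46% and the 4 Os. classes from 1.56 to 2.01%.

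Within the OsAffx names, sets ending in _x_at were never flagged most often, 226 of 3498 or 6.46% (5.67 to 7.33%), followed by plain _at with 1028 of 20735 or 4.96% (4.67 to 5.26%) and _s_at with 50 of 1267 or 3.95% (2.94 to 5.17%). Within the Os. names the 4 endings lay closer together: 2.01% for _s_at (1.37 to 2.83%), 2.0% for _x_at (1.57 to 2.5%), 1.63% for _a_at (1.04 to 2.44%) and 1.56% for plain _at (1.41 to 1.72%). The interval of each of the 3 OsAffx endings lay above the interval of the Os. sets with the same ending. Over both origins, names ending in _x_at were 16.4% of the never-flagged sets and 12.4% of the others, and names ending in _s_at were 4.45% (3.55 to 5.5%) and 4.93%. The interval of the _s_at share takes in the share of the other sets, so no difference was detectable. Among Os. names alone, _s_at made up 5.98% of the never-flagged sets and 4.86% of the others.

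OsAffx sets were also the less often called at the opposite end of the scale. In at least 1 mutant line, 1199 of the 25500 OsAffx sets reached a share of 0.5 (4.70%), as did 2214 of the 31694 Os. sets (6.99%), against 5.97% of all sets. The median OsAffx set had a value above 0 on 3 arrays, and the median Os. set on 6 arrays. Their mean share over the 16 lines was 0.0354 for OsAffx and 0.0538 for Os. names, and without the never-flagged sets it was 0.0373 and 0.0547. The OsAffx mean thus stayed the lower one with the never-flagged sets left out. The order was not the same on every array: on D1137, G650 and F1856 the Os. sets were the more often at 0, as on D1137 with 71.2% of the OsAffx and 74.7% of the Os. sets.

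The number in an OsAffx name gave a rough idea of spread over the predicted models. In blocks of 1000 consecutive numbers, between 3.40 and 7.46% of the sets were never flagged, with a median of 5.22% over the 33 blocks. No block was without them, and no chromosome was read from the numbers.

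Probe sets whose names share the part before the second dot were designed from 1 cluster of related sequences. Of the 46155 such name roots, 1754 held a never-flagged set, and 66 held 2 or more, with 134 sets among them. In 40 of the 7991 roots with 2 or more sets, every set was never flagged. The roots with most were OsAffx.20707, where 3 of 7 sets were at 0 on all arrays, and OsAffx.20208, where all 3 sets were. Sets with the same root may share probes, so they are not separate measurements. Membership of a larger root did not go with a steadily higher share. Among OsAffx names it was 4.76% for roots of 1 set, 6.46% for roots of 2, 4.59% for 3 to 4 and 4.62% for 5 or more. Among Os. names the same roots gave 1.62, 1.58, 1.75 and 2.27%. OsAffx.27508, the root with the most sets, 20 in all, held none. A count of 0 in 20 sets still allows a share of up to 15%.

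Most never-flagged sets could not be placed in the genome with the annotation used. Of the 1822, 299 were paired with exactly 1 gene, 2 with several and 1521 with none. The paired sets were thus 16.4% of the never-flagged group (14.7 to 18.2%) and 40.0% of the other sets (39.6 to 40.4%). Only 446 of the 25500 OsAffx sets have 1 gene. Within Os. names, 1.28% of the 21990 sets with 1 gene were never flagged (1.14 to 1.44%) against 2.43% of the 9610 sets with none (2.14 to 2.76%). Among OsAffx names the shares were 3.81% with 1 gene (2.24 to 6.03%) and 5.14% with none (4.87 to 5.42%). With 1 gene known, OsAffx sets were thus still the more often never flagged (3.81% against 1.28%). Os. sets with 1 gene were also split by accession, and those beginning with AK were taken as full-length cDNA. Such sets were never flagged in 1.23% (1.08 to 1.39%). Those with another accession were in 1.51% (1.09 to 2.05%), with intervals that overlap. The 129 sets with no accession stood above the full-length cDNA sets, at 6 sets or 4.65% (1.73 to 9.85%).

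The 299 placed sets belong to 296 genes, or 1.65% of the 17905 measured genes, and all but 4 of the sets lie on protein-coding genes; 3 are on long noncoding RNA genes and 1 on a gene of another RNA class. None of the 30 sets on pseudogenes or transcribed pseudogenes was never flagged, a count of 0 that allows a share of up to 10%. The plastid gene and the mitochondrial gene among the measured genes had no never-flagged set, and nothing is read from so few genes. By chromosome, the share of sets with 1 gene that were never flagged was highest on chromosome 9, with 26 of 1185 or 2.19% (1.44 to 3.2%), and lowest on chromosome 8, with 12 of 1520 or 0.789% (0.409 to 1.37%), against 1.33% of all such sets. Chromosomes 5 (1.78%), 4 (1.65%) and 10 (1.54%) followed chromosome 9, and chromosomes 11 (0.843%) and 12 (1.05%) lay next to chromosome 8. Only the intervals of chromosomes 8 and 9 failed to overlap, out of 66 pairs of chromosomes. Counted by genes, the order of these 2 stayed the same, at 2.70% of the genes of chromosome 9 and 0.995% of those of chromosome 8.

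**Figure D3:**
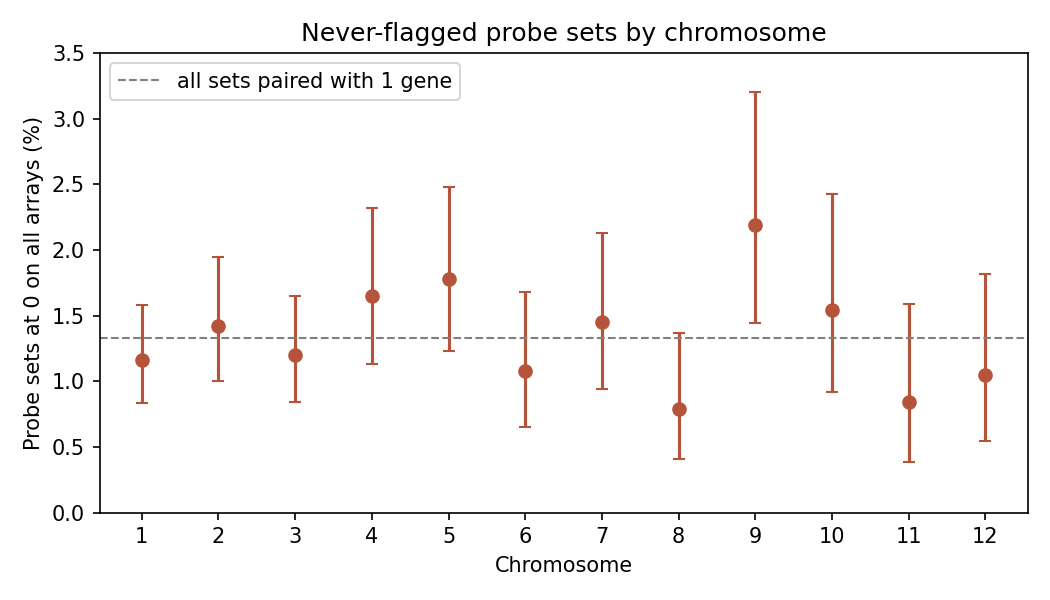
Percent of the probe sets paired with 1 gene that were at 0 on all arrays, by chromosome, with 95% exact Clopper-Pearson intervals; the dashed line is the 1.33% of all such sets. Chromosome 9 has the highest value (2.19%) and chromosome 8 the lowest (0.789%), and most intervals overlap.

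Some genes with a never-flagged set were next to each other. Along the gene order of the assembly ASM3414082v1, 11 pairs of neighbouring measured genes both held such a set and no run was longer than 2 genes. Such a set was held by 296 of the 17905 measured genes, or 1.65%. No expected number of pairs was worked out, so the count is not read as many or few. The pairs lie on chromosomes 1, 2, 3, 5, 6, 8 and 10, and include LOC4325690 with LOC4325693 (CML16, a calmodulin-like protein, which senses calcium) on chromosome 1 and LOC4338069 with LOC4338070 on chromosome 5.

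The genes paired with a never-flagged set were shorter at the median than the other measured genes. They cover 299 of the 1822 never-flagged sets, and only 17 of these 299 have OsAffx names. The median length of these genes was 2650 bp (95% exact interval of the median 2311 to 2900 bp, n = 296). It was 3539 bp (3500 to 3582 bp) for the 17609 measured genes without such a set. The lower and upper quartiles were 1534.2 and 4313.8 bp with a never-flagged set and 2211 and 5223 bp without one, so the distributions overlap widely. LOC4340124 on chromosome 6 was the shortest with 576 bp, and LOC4323850 on chromosome 1 the longest with 26364 bp. Genes also differ in their number of probe sets, and a gene with more sets has more chances to hold one at 0. A never-flagged set was held by 1.21% of the 14461 genes with 1 set and by 3.51% of the 3444 genes with 2 or more. How much of this gap goes with the number of sets was not tested. Among genes with 1 set the medians were 2249 bp (1971 to 2644 bp, n = 175) and 3415 bp (3373 to 3454 bp, n = 14286). Length on this assembly takes in introns and is not the length covered by probes.

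Split by length into 5 classes of like size, the genes with 1 set had a stepwise lower share of never-flagged sets. It was 2.25% (1.74 to 2.85%) in genes of 197 to 1860 bp, 1.56% (1.14 to 2.08%) in the second class, 0.934% (0.616 to 1.36%) in the third, 0.692% (0.423 to 1.07%) in the fourth and 0.623% (0.369 to 0.982%) in genes of 5457 bp and more. The same order held when only Os. names with a plain _at ending were counted, with 2.18, 1.53, 0.811, 0.756 and 0.607%. The intervals of neighbouring classes overlap, and those of the shortest and the longest class do not. Genes are not replicates, and no test was made over them.

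**Figure D4:**
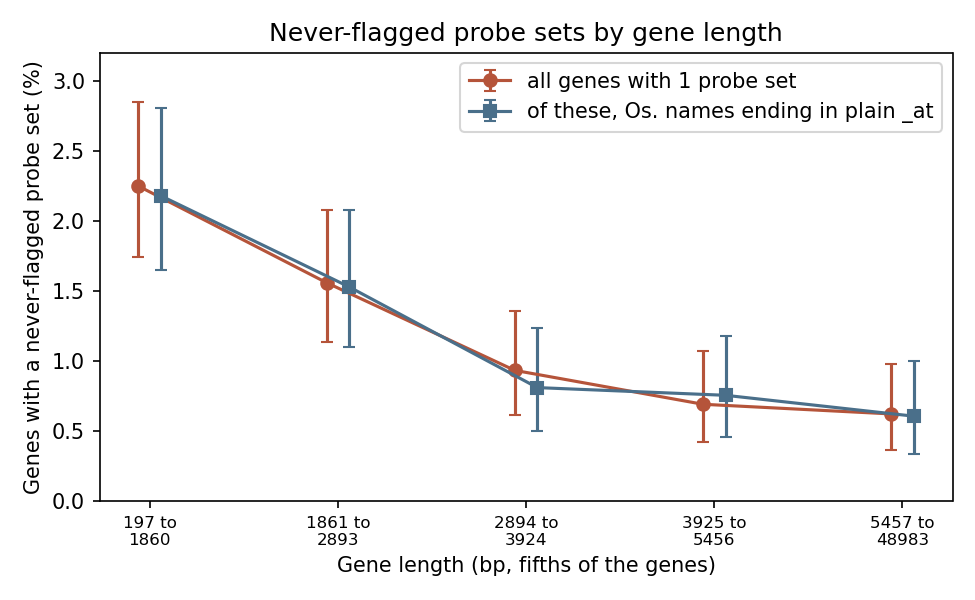
Percent of genes with exactly 1 probe set whose set was at 0 on all arrays, by 5 classes of gene length (bp); circles are all such genes, squares those with an Os. name ending in plain _at, and bars are 95% exact Clopper-Pearson intervals. The share is 2.25% in the shortest class and 0.623% in the longest.

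Few of the placed genes carry a name beyond a locus number. Of the 2915 measured genes with a symbol or a synonym of any kind in the gene table, 36 held a never-flagged set (1.23%, against 1.65% of all measured genes). In 22 gene families, read from symbols and synonyms, 4 of 539 measured genes did (0.742%). These were OsPP2C32, 1 of 55 protein phosphatases 2C; GSTZ5, 1 of 6 glutathione transferases; the potassium transporter gene HAK11; and PTC1, which the pattern for transporters took in by its letters although it encodes a PHD finger protein of anther development. None of the 51 calcium-dependent and CBL-interacting kinase genes, 31 MADS box genes, 30 aquaporin genes, 29 cytochrome P450 genes or 25 ribosomal protein genes had a never-flagged set. A count of 0 in 51 genes allows a share of up to 5.88% and in 25 genes of up to 12%, so a share like that of all genes was not detectable in families of this size.

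Genes of metabolism among the 36 include CAT-A (catalase A, which breaks down hydrogen peroxide), PDC2 (pyruvate decarboxylase, an enzyme of fermentation), PDRP1 (a regulatory protein of pyruvate phosphate dikinase), CYN (cyanase), KSL5 (a kaurene synthase-like enzyme of diterpene synthesis), GSTZ5 and the glutaredoxin gene GRXC7. GLUD1 (a glutelin, a storage protein of the grain), RASI (an inhibitor of alpha-amylase and subtilisin) and Pi21 (a proline-rich protein whose loss of function gives resistance to rice blast) are known from seeds or defence. Regulators are JAZ4 (a repressor of jasmonate signalling), SPL7 (an SBP box factor), Roc6 (a homeodomain leucine zipper factor), PRMT5 (an arginine methyltransferase), TULP10 (a tubby-like protein), OsPP2C32, CML16, PTC1 and the CCCH zinc finger genes OsC3H22, OsC3H49 and OsC3H65. KU80 encodes a subunit of the Ku complex, which holds broken DNA ends during non-homologous end joining, and EL2 an inhibitor of cyclin-dependent kinases. HAK11, CCC1 (a cation chloride cotransporter), IRX14 (a glycosyltransferase of xylan synthesis) and GER8 complete the 27 genes described here, which are those of the 36 whose product or family could be named from the symbol. Of these, 16 are measured by the never-flagged set alone.

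The other 11 have further probe sets, called partners here. Their values were not part of the rule, although partners with the name root of the never-flagged set may share probes with it. In 7 of them each partner had a median share of 0 over the arrays. Pi21 had a second set, Os.54602.1.S1_s_at, that was at 0 on 16 arrays and at 0.0909 in G6989. The second set of EL2 had 0.182 in G282, 0.0909 in G6989 and 0 on all others. OsC3H65 had 0.0909 in G282, G9799 and G6989 and 0 elsewhere at its second set. At PDC2 the second set reached 0.364 in G6989, 0.182 in G282 and 0.0909 in G6686, and at CYN 0.455 in G6989 and 0.182 in G282, with 0 on the remaining arrays in both. CAT-A had 2 partners, with highest shares of 0.273 in G282 and 0.0909 in G6603 and G6989, and a median of 0 for each. JAZ4 ranged over 0 to 0.273, with a median of 0 and the highest value in G282.

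The other 4 each had at least 1 partner with a median of 0.0909. Roc6 had a second set above 0 on 14 arrays, with a lowest share of 0, a median of 0.0909 and a highest of 0.182. In CCC1 the second set was above 0 on 14 arrays as well, with a median of 0.0909 and 0.364 in each of G282, G6603, G6686 and G6989. KU80 has 3 partners, all ending in _x_at, with highest shares of 0.364 (G6989), 0.273 (G6603, G6686 and G6989) and 0.273 (G6989) and medians of 0.0909, 0.0909 and 0. GER8 had one partner with a median of 0.0909 and 0.636 in G6989, and a second with a median of 0 and 0.273 in the same line. A gene thus could hold a set with no flagged probe on any array beside one that was flagged on most. In each of these 11 genes the highest partner value was held or shared by G6989 or G282, the lines with the highest mean share over all sets.

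Over the whole array, 121 genes with 2 or more sets held 124 never-flagged sets. In LOC4337099 on chromosome 4 and LOC4343773 on chromosome 7, of 649 and 933 bp, both sets of the gene were at 0 on all arrays; each pair shares its name root. LOC4337868 on chromosome 5 had 2 of its 3 sets at 0 throughout, with different name roots, and the third, Os.37384.1.S1_s_at, reached 0.182 in G282 and G6989, 0.0909 in d1 and WT check and 0 on the other arrays.

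To set the partners of never-flagged sets against a like measure, each probe set of a gene with 2 or more sets was given the mean share of that gene's remaining sets, on each array. Of the 172 remaining sets in the genes with a never-flagged set, 106 share its name root, so part of their values may be fixed by the choice through shared probes. Never-flagged sets were also not left out when a gene's remaining sets were averaged. In the 3 genes with 2 of them, each took in the other's share of 0, fixed by the choice. The means given to the 172 sets took in such shares of 0 as well. Over the 16 lines the mean was 0.0393 ± 0.0426 beside the 124 never-flagged sets and 0.0588 ± 0.0566 beside the 7851 other sets (SD over lines). It was lower beside the never-flagged sets in 15 of 16 lines, by a mean difference of -0.0195 ± 0.0157 (SD, two-sided exact sign-flip permutation test over the lines, p = 6.10e-05, adjusted over 2 such comparisons 1.22e-04, smallest possible p 3.05e-05). G6989 had 0.168 against 0.217, G282 0.107 against 0.154, and G7534 0.0388 against 0.0776. The exception was G650, with 0.00491 against 0.00420. On the WT check array the values were 0.0819 and 0.0850, a difference of -0.00312. The test describes these lines on the same probe sets and the same wild type, and does not carry over to other genes. It treats the lines as independent, which they are not, and its p-value does not measure the spread between genes.

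**Figure D5:**
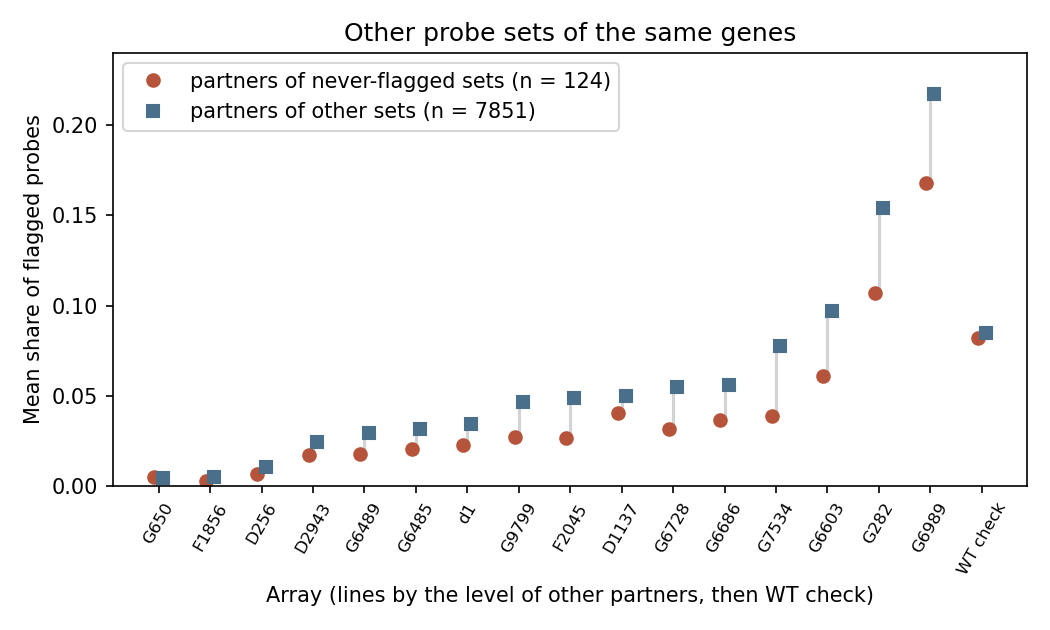
Mean share of flagged probes over the other probe sets of the same gene, by array; circles are partners of the 124 never-flagged sets and squares partners of the 7851 other sets. The circles lie lower in 15 of the 16 lines, by most in G6989 (0.168 against 0.217) and G282 (0.107 against 0.154), and lie close to the squares on WT check (0.0819 against 0.0850).

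With partners limited to sets of another name root, the difference was -0.0194 (53 never-flagged and 3222 other sets, exact sign-flip p = 6.10e-05), lower in 15 of 16 lines. The 2 never-flagged sets of LOC4337868 have different name roots, so each stayed in the other's mean. The genes of the never-flagged sets were the shorter ones here too: among genes with 2 or more sets the median length was 3356 bp with a never-flagged set and 4161 bp without. The part of length in the difference between partners was not tested.

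Of the 172 partner sets of these genes, 8 sets of 7 genes reached a share of 0.5 on some array (4.65%), against 8.71% of all sets on genes with 2 or more sets. LOC9267997 on chromosome 4 held 2 of them. Its set Os.11039.3.S1_at had 0.727 in G282 and was above 0 on 11 arrays, Os.11039.1.S1_s_at had 0.545 in G6989 and 0 in G282, and its never-flagged set is Os.49651.1.S1_s_at. LOC4345494 on chromosome 8 had 0.727 in G6989 and 0.545 in both G282 and G6603 at Os.24417.2.S1_at, with a median of 0.182 over the arrays, while Os.24417.1.S2_at stayed at 0. LOC4342842 on chromosome 7 had 0.636 in G6989 and 0.545 in G282 at Os.25866.2.S1_at, with a median of 0. The remaining ones are GER8 and, each with a highest share of 0.545, LOC4324622 (in G282), LOC9271675 (in G6989) and LOC4332744 (in G6603). Every one of these calls fell in G6989, G282 or G6603.

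Neighbouring genes showed a smaller difference of the same sign. The adjacent measured genes on both sides, left out where they held a never-flagged set themselves, had a mean share over the 16 lines of 0.0497 ± 0.0520 beside the 296 genes with such a set and 0.0560 ± 0.0564 beside the 17601 others with a usable neighbour (SD over lines). The difference was -0.00634 ± 0.00676, lower in 14 of 16 lines (two-sided exact sign-flip permutation test, p = 0.00235, adjusted p = 0.00235). D1137 (0.0590 against 0.0498) and G650 (0.00491 against 0.00387) went the other way, and WT check had 0.0832 and 0.0827. With 3 neighbours on each side the difference was -0.00321, again lower in 14 of 16 lines. Like the partner test, the test of neighbours describes these lines on the same genes and the same wild type. The lines are not independent, and the p-value does not measure the spread between genes.

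A gene measured by 1 set cannot be called and hold a never-flagged set, so few such genes can lie in runs of called genes. Of 15 runs of 4 or more called genes across the lines, with at most 5 uncalled genes between neighbours, 14 held no gene with a never-flagged set. Counting each run, this was 1 of 133 genes, against 1.65% of all measured genes, and nothing is read from so small a count. The 1 gene lay in a run on chromosome 7 of G6989 with 4 called genes among 11, where OsC3H49 was an uncalled gene. Among the 290 genes within 10 measured genes of a run, each run counted, there were 2 more, LOC4338474 beside the chromosome 5 run of d1 and LOC4344513 beside a chromosome 8 run of G6989. The second set of LOC4344513 was at 0 on all arrays but G6989, where it had 0.0909.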

How the data were processed

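The deposited values are fractions made by the authors. Each array was scanned 2 times and the scans averaged. Perfect match signals were then scaled to wild type, without background correction, and compared probe by probe as log ratios. The submitters' processing notes name affy without a version. Of several log ratio limits in the methods, none is tied to the deposited fractions. At a proportion of 0.5, the study counts no set on D256, D2943, G6485, G6603, G6728 or WT check under the stricter limit. Under the looser limit it counts some on each. The highest deposited shares on these arrays ran from 0.556 (WT check) to 0.909 (G6485 and G6603), so the fractions do not match the stricter count. Raw signals were not used here, and precision is limited by the probe number. In 55186 of the other sets all values were multiples of 1 in 11 within 0.02. The probe number of a set at 0 throughout cannot be read from its values.

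Never-flagged sets were found with Python 3.11.15, pandas 2.3.3, numpy 2.4.6 and scipy 1.17.1. Genes came from the platform annotation of probes and, for names, order and length, the RefSeq gene table of ASM3414082v1. Shares have 95% exact Clopper-Pearson intervals. Where no set or gene was counted, the upper limits given are an approximation from the group size and not Clopper-Pearson limits. Partners and neighbouring genes (median over a gene's sets) were compared with two-sided exact sign-flip permutation tests over the 16 lines, with Benjamini-Hochberg adjustment over 2 tests. The partner step was first run on simulated shares, drawn independently for each probe set and array. Those shares held no lasting differences between unrelated probe sets, so they cannot show whether the p-values are too small for the real data. Alternatives left out arrays or lines, allowed 1 flagged probe, or restricted classes, partners and genes.

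Named genes were those with a symbol or, added after the tables were read, a synonym, those with several never-flagged sets or a called partner, and those in or near runs. The group, the lists and the rules were chosen with earlier results of these data known.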

Additional observations from a re-analysis of the deposited data

How the results depend on the processing

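The number of never-flagged sets depends on the arrays and the limit: it ran over 1827 to 4195 with 1 array left out (without G650 and without G6989), and was 10563 without WT check, G6989 and G282 together and 14579 with 1 flagged probe of 11 allowed on every array. Under these last 2 settings the never-flagged sets had 57.0 and 60.5% OsAffx names (others 41.8 and 39.1%), 13.2 and 14.7% names ending in _x_at (others 12.4 and 11.8%), 28.1 and 23.8% paired with 1 gene (others 41.8 and 44.5%), and a median gene length of 2949 and 2948 bp (others 3621 and 3629 bp). With 1 array left out, OsAffx names ran over 65.7 to 74.0%, _x_at over 15.1 to 17.9%, _s_at over 4.33 to 4.86%, sets with 1 gene over 15 to 20.9% and the median length over 2375.5 to 2792 bp. Each kept its direction against the other sets except _s_at, at 5.16% (others 4.86%) without the 3 arrays and 5.98% (others 4.86%) among Os. names. Among sets with 1 gene, OsAffx names were 5.69% (others 1.94%), _x_at among Os. names 14.1% (others 11.5%), and the median length of genes with 1 set 2249 bp (others 3415 bp).

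The partner difference ran over -0.0209 to -0.0175 with 1 line left out (exact sign-flip p up to 1.22e-04) and was -0.0160 with plain _at Os. partners (p = 9.16e-05), and that of neighbouring genes over -0.00737 to -0.00550 (p up to 0.00470). No paired analysis was possible because the arrays carry no replicate numbers to pair by, beyond the sign-flip tests, which set 2 means of the same array against each other. The comparison of protein words and of exon or protein length was not run, since no protein or exon table was used. Probe signals were not used, so how bright the never-flagged sets were is not known here.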
